A study of Zea mays with 2 samples.

Results

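The transcripts described here had a signal over that of control probes in the stem of wild-type maize. Their signal was at least 4-fold higher in the stem of the dominant dwarf mutant D11. They were chosen by the measured signals themselves. A probe set, the group of short probes that reads a transcript on the array, was taken where its WT signal was over the highest signal of control probes that match no maize transcript (27.6), its D11 signal was at least 200 and the quotient D11/WT was at least 4. Of 17555 analysed probe sets, 124 met the rule (0.706%), which is 1.44% of the 8614 probe sets with a WT signal over 27.6 and a D11 signal of at least 200. The mirror rule for lower transcripts found 39 (0.222% of all). Since the ratio chose the members, their ratios are a description and no finding.

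The study compared stems of D11 plants with stems of wild-type plants (WT, inbred line Mo17), both collected when the tassel emerged. No treatment was given. Each genotype was hybridized to 1 Affymetrix Maize Genome Array, so no difference below has a replicate, an error or a test. D11 arose in a cross of Mo17 with the line HN06 and was carried on by backcrossing to Mo17, B73 and W22, and the sources used here do not give the nuclear background of the D11 plants put on the array. A difference by genotype and a difference by background therefore cannot be told apart. Nor can more cells of a type and more RNA per cell, because whole stems were extracted.

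Stems are built by the division and elongation of cells under the control of hormones, of which gibberellins (GAs) promote elongation. Maize shoots also make chemical and protein defences. Benzoxazinoids are indole-derived toxins, stored as glucosides and freed by beta-glucosidases when a cell is broken. Pathogenesis-related proteins, chitinases and protease inhibitors act on fungi and on the gut enzymes of insects.

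The 2 arrays had median signals of 192 (D11) and 168 (WT). For probe sets over the control level in both arrays, 12461 in all, the median log2 ratio was 0.06, with 6.20% at least 2-fold higher in D11 and 3.95% at least 2-fold lower. Without the 124 members, which the rule put among the higher ones, the shares were 5.26% and 3.99% of 12337. Unless stated, 2-fold counts below are over such probe sets, so a transcript that was lost under the control level in D11 is not in them. The 21 control probe sets for spike transcripts over the control level differed by at most 1.30-fold, and several of them can read the same transcript. Markers of other tissue were set side by side. The leaf blade list (Rubisco, chlorophyll-binding genes and families of C4 enzymes, 20 probe sets) summed to 29760 in D11 and 31364 in WT. A name match also took in the kinase genes PDK1 and PDK2 (pdlk1 and pdlk2), which are not PPDK and had ratios from 0.74 to 0.99. Their signals are in the sums and counts given here. None of the list was a member. Of its 17 probe sets over the control level in both arrays, none was at least 2-fold higher and 2 were at least 2-fold lower. These were pep4, of the PEP carboxylase family (120 in D11 and 341 in WT), and PPDK, in 1 of its probe sets (116 and 249). Over all 20, signals under the control level included, 4 were at least 2-fold lower. Among them was the PEP carboxylase gene pep1, with 47.5 in WT and 13.4 in D11, under the control level. Of 13 probe sets for kernel storage proteins and oleosin, 1 was over the control level in either array, for gz27, with 1245 in D11 and 686 in WT.

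The 124 members had WT signals from 27.6 to 1430 (median 87.9) and D11 signals from 200.2 to 6528 (median 728). The limit of 200 lies over the D11 median, so all were over it, and 36 were over the median in WT. Their ratios ran from 4.01 to 149 with a median of 6.91. Of these ratios, 38 were under 5, 50 lay between 5 and 10, 20 between 10 and 20, and 16 were 20 or more. At the ratio limit, the nearest members had 4.01, 4.04 and 4.05, and the nearest probe sets left out had 3.99, 3.98 and 3.97. At the D11 limit, the members had 200.2, 213 and 215, and those left out had 195, 193 and 187. At the WT limit, the members had 27.62, 28.2 and 29.5, and those left out had 27.46, 25.2 and 24.2.

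**Figure D1:**
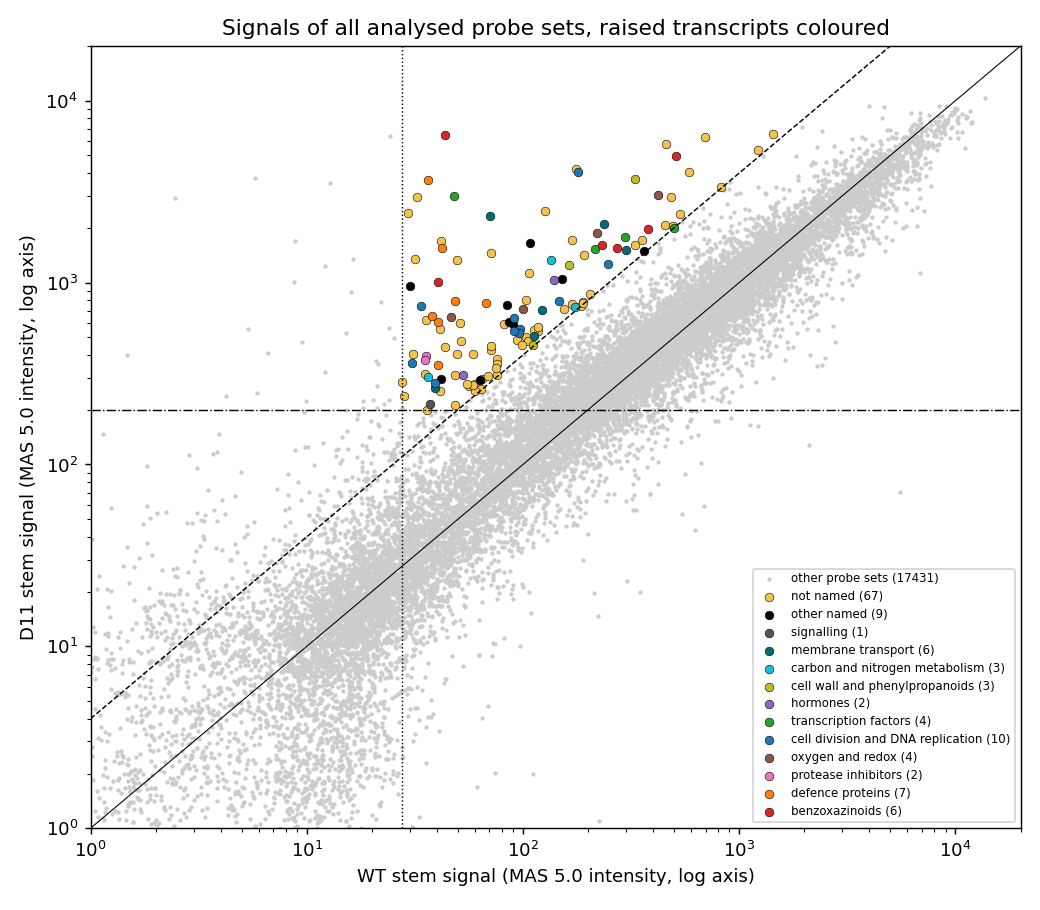
WT signal (x axis) and D11 signal (y axis) of each analysed probe set, as MAS 5.0 intensities on log axes that begin at 1, so weaker signals are not drawn. Grey points are the 17431 other probe sets, coloured points the 124 raised transcripts by function group, the solid line marks equal signals, the dashed line 4-fold, the dotted line the WT control level and the dash-dotted line a D11 signal of 200.

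By their level in WT, the members fell into 4 classes. From the control level to 50 there were 37 members, 2.80% of the 1320 probe sets in that range. From 50 to 100 there were 32 (2.24% of 1429), and from 100 to the WT median 19 (1.41% of 1348). Over the WT median there were 36, or 0.410% of 8777. The median ratio was 13.0 in the lowest class and 5.61, 5.76 and 5.15 in the following classes. A WT signal under 50 needs a ratio over 4 to reach 200, so part of this order comes from the rule. The spread of the log2 ratio over all probe sets of a class moved with it, with an SD of 1.17 in the lowest class, 0.90 and 0.72 in the middle classes and 0.59 over the median. Of 36 members with a ratio of at least 10, 24 were in the lowest class and 5 over the WT median.

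**Figure D2:**
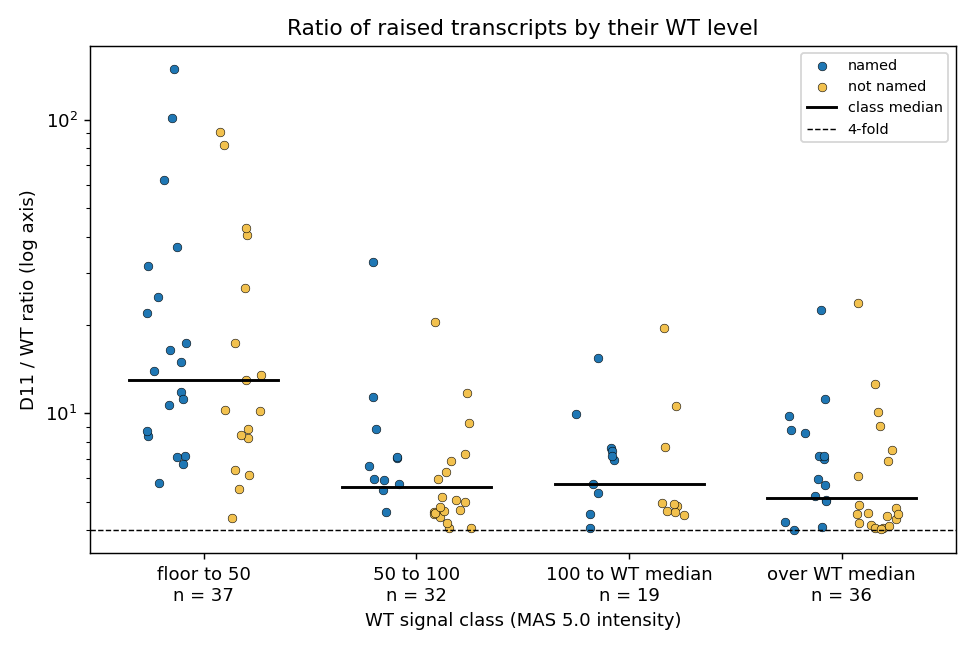
D11/WT ratio (y axis, log scale) of the 124 raised transcripts in 4 classes of WT signal (x axis), with 37, 32, 19 and 36 members. Each point is a probe set, blue where it has a name and yellow where it has none, and bars give the class medians of 13.0, 5.61, 5.76 and 5.15.

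The platform's gene table and the study's own list of differing transcripts named 57 of the 124 members. Of these, 17 were in both, 6 in the gene table alone and 34 in the list alone. That list was picked by fold change on the same arrays, so a group with many names from it is not independent evidence of a direction. Counts below of gene table probe sets in a group are of those with an entry in that table. Their group could also come from the list's name for them. The named members fell into 11 function groups, with 9 left outside them.

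Genes of benzoxazinoid synthesis and release gave 6 members. The gene glu1 (LOC542414), for a beta-glucosidase that frees benzoxazinoids from their glucosides, gave 43.4 in WT and 6471 in D11 (149-fold). The gene bx2 (LOC100192631) encodes the cytochrome P450 (CYP71C4) that takes the first oxidation step after indole. It had 1003 in D11 against 40.3 in WT (24.9-fold). The gene bx4 (LOC100382554, CYP71C1), for a later P450 of the same series, was read by a pair of probe sets. One had 1976 in D11 against 379 in WT (5.22-fold), and the other had 1550 and 272 (5.70-fold). The dioxygenase gene bx6 (LOC541977), which acts on the glucoside DIBOA-Glc, also had a pair, with 4985 and 508 (9.81-fold) and 1619 and 232 (6.97-fold). The members of the synthesis steps thus had WT signals on both sides of the WT median, with bx4 and bx6 over it and bx2 below it.

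The gene table names 6 probe sets of this pathway, of which 3 were members and none met the mirror rule. Those left out of the members were bx1, for the entry enzyme, at 1355 in D11 and in WT 16.4, under the control level, igl1 at 197 in D11 and 206 in WT, and glu2 at 15.3 and 109. Of these, only igl1 could meet the mirror rule, which needs a WT signal of at least 200 and a D11 signal over the control level. The beta-glucosidase aggregating factor (LOC100282063), a lectin that binds maize beta-glucosidases, was itself a member. It had 603 in D11 against 40.4 in WT (14.9-fold).

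Of the defence proteins, 7 were members, and their WT signals lay between 36.2 and 67.5. The transcript of the thaumatin-like PR-5 (LOC542720) gave 36.2 in WT and 3678 in D11 (101-fold). A defence-related protein (LOC103652813) had 1557 and 42.1 (36.9-fold). Chitinase cleaves the chitin of fungal walls, and its transcript chiA (LOC100283098) had 657 in D11 against 37.8 in WT (17.4-fold). A PVR3-like protein (LOC100281647) had 793 and 48.4 (16.4-fold). A second thaumatin-like protein (LOC100281263) had 768 and 67.5 (11.4-fold), and an osmotin-like protein (LOC100280707) had 353 and 40.5 (8.73-fold). All 7 thus were under the WT median of 168. Of the gene table's probe sets, 8 fall in this group. PR-5 was the only member among them. Of the others, 1 was over the control level in both arrays, with a log2 ratio of -0.77, and it did not meet the mirror rule. The rest could not meet that rule, which needs both signals over the control level.

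A pair of protease inhibitor transcripts had nearly the same values. A trypsin inhibitor had 397 in D11 against 35.5 in WT (11.2-fold), and a Bowman-Birk inhibitor (LOC100037814) had 375 and 35.2 (10.6-fold). Of the 11 probe sets of the gene table that fall in this group, mostly cystatins, 8 were over the control level in both arrays. Their median log2 ratio was 0.56, against 0.06 for all such probe sets. The 1 at least 2-fold higher was the Bowman-Birk inhibitor itself, which only the study's list names as an inhibitor. None of the other 7 was at least 2-fold higher or lower. Their median was 0.49.

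In the group of oxygen and redox proteins, the non-symbiotic hemoglobin gene Hb (LOC541815), for an oxygen-binding protein, had 1883 in D11 against 220.0 in WT (8.56-fold). Peroxidases oxidize phenolics with hydrogen peroxide. The gene PER42 had 3026 and 422 (7.17-fold), and peroxidase 54 (LOC100282431) had 648 and 46.6 (13.9-fold). A polyphenol oxidase had 714 and 100.1 (7.14-fold). Of 53 probe sets of the gene table that fall in this group, most of them glutathione S-transferases, 33 were over the control level in both arrays. Of these 2 were members. Among the other 31, 7 were at least 2-fold higher and 3 at least 2-fold lower, with a median log2 ratio of 0.21, where the shares over all probe sets outside the members were 5.26% and 3.99%.

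Cell division and DNA replication gave 10 members, 2 of them named by the gene table and the others by the study's list alone. Histones, the proteins around which DNA is wound, are made mainly while DNA is copied, and 6 of the 10 were histones. The H2B transcript, his2b5 (LOC542301) by the gene table and another gene ID in the study's list, had 747 in D11 against 33.9 in WT (22.0-fold). A second H2B probe set, to which the list gives that same gene ID, had 557 and 97.3 (5.73-fold). Those of H2A had 362 and 30.6 (11.8-fold), 641 and 90.7 (7.06-fold) and 1258 and 248 (5.08-fold), and an H3.2 had 792 and 147 (5.37-fold). The ratios of H2A and of H2B thus differed between probe sets of the same histone. The gene pcna1 (LOC542425), for the sliding clamp of the DNA polymerases, had 526 and 95.6 (5.50-fold). The small subunit of ribonucleotide reductase (LOC100192012), which supplies deoxynucleotides, had 545 and 91.3 (5.97-fold). The transcript for CDC20 (LOC100285215), an activator of the ubiquitin ligase that ends mitosis, had 281 and 39.3 (7.16-fold). The transcript annotated as Meiosis 5 (LOC100281625) had 4057 and 181 (22.5-fold).

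Of the gene table's probe sets, 30 fall in the cell division group. Of the 22 over the control level in both arrays, 2 were members. Among the other 20, 6 were at least 2-fold higher and 1 was at least 2-fold lower, with a median log2 ratio of 0.22, beside shares of 5.26% and 3.99% over all probe sets outside the members. Outside this list stood nfd101 (LOC542658) and nfd106 (LOC541952), nucleosome and chromatin assembly factor genes. The former had 1492 in D11 against 364 in WT (4.10-fold), and the latter 292 and 63.1 (4.62-fold). The 4 other nfd probe sets had ratios of 1.26, 1.42, 1.47 and 1.50. As for meristem tissue, the gene kn1, a marker of the shoot meristem, had 1762 in D11 against 1664 in WT, knox7 had 454 and 488, and lg3 had 788 and 303. Their part in the values of the cell division group was not tested.

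Among transcription factors, 3 of the 4 members were MADS-box genes, a family best known from flower and inflorescence development. The gene m21 (LOC542035) had 3007 in D11 against 48.1 in WT (62.5-fold). A second probe set of m21 had 129 in D11, and in WT 17.9, which was under the control level. The gene m20 (LOC542034 by the gene table, whereas the study's list names the probe set MADS19) had 1533 and 214 (7.15-fold). The gene m26 (LOC542044) had 2004 and 499.6 (4.01-fold), closest to the limit of all members. These genes belong with m19 (tunicate1) to the SVP-like branch of the family, a grouping that was noticed after the values were seen. For m19 the signals were 2008 and 1186, a ratio of 1.69. The rule fixed the direction of m20, m21 and m26, and only m19 was free of it.

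Of 32 MADS probe sets in the gene table, 11 were over the control level in both arrays, and 3 of these were at least 2-fold higher, the members named above. The rule fixed these 3, and none of the others of the 11 was at least 2-fold higher. The 1 at least 2-fold lower was m31, with 59.0 in D11 and 685 in WT. Over all probe sets outside the members the shares were 5.26% higher and 3.99% lower. A further 3 were over the control level in WT and under it in D11. These were ZMM2 (19.9 in D11 and 107 in WT), m5 (11.1 and 81.4) and M8 (5.87 and 29.5). Over all 32, signals under the control level included, 7 were at least 2-fold higher and 9 at least 2-fold lower. The summed signal of the 32 was 16585 in D11 and 9863 in WT, and without the 3 members it was 10041 and 9100. Whether inflorescence tissue in the sampled stems had a part in these values was not tested. The fourth transcription factor was a zinc finger protein, zfp30 (LOC606475), with 1770 and 296 (5.97-fold). In the whole transcription factor group, 30 gene table probe sets outside the members were over the control level in both arrays. Of these, 4 were at least 2-fold higher and 3 at least 2-fold lower, with a median log2 ratio of 0.06.

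Hormone genes gave a pair of members. The gene dwarf3 (LOC542580, ZmKAO), whose P450 product oxidizes kaurenoic acid to GA12, had 312 in D11 against 52.8 in WT (5.91-fold). Gibberellin-regulated protein 1 (LOC100284720) belongs to a family of small cysteine-rich proteins. It had 1038 in D11 against 139 in WT (7.45-fold). Of 29 probe sets of the gene table that fall in the hormone group, 17 were over the control level in both arrays. Outside dwarf3, 1 of the other 16 was at least 2-fold higher and none at least 2-fold lower, near the shares over all probe sets outside the members (5.26% and 3.99%). Their median log2 ratio was -0.22.

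Of the members for membrane traffic and transport, 3 were aquaporins, channels for water and small solutes. NIP2-3 (LOC542497, also Lsi6), whose rice counterpart carries silicic acid, had 2324 in D11 against 70.7 in WT (32.9-fold). TIP4-4 (LOC542647), of the vacuolar membrane, had 705 and 122 (5.76-fold), and PIP2-6 (LOC541891), of the plasma membrane, had 511 and 113 (4.54-fold). Each was the 1 member of its subfamily. NIP2-2 was no member because its WT signal of 22.1 was under the control level, and it had 778 in D11. Of probe sets over the control level in both arrays there were 5 for NIP, 5 for TIP and 14 for PIP genes, with median ratios of 1.18, 0.63 and 1.10. In each subfamily 1 probe set was at least 2-fold lower. These were NIP1-1 (392 and 1047), TIP2-2 (53.4 and 542) and PIP2-4 (270 and 1024). TIP2-3 went from 42.3 in WT to 13.8 in D11, under the control level. The aquaporins therefore did not move together. In the whole transport group, 21 gene table probe sets outside the members were over the control level in both arrays. None of these was at least 2-fold higher and 3 were at least 2-fold lower, with a median log2 ratio of -0.18. Over all probe sets outside the members the shares were 5.26% and 3.99%. The other members of this group were a lipid binding protein (LOC100284997; 2092 and 238, 8.78-fold), the SNARE YKT62 (LOC100282605; 1503 and 299, 5.03-fold) and patellin-5 (LOC100281982; 263 and 39.1, 6.72-fold).

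Cell wall and phenylpropanoid genes gave 3 members. The O-methyltransferase ZRP4 (LOC100303908) had 3701 in D11 against 330 in WT (11.2-fold). A second probe set assigned to the same gene had 163 and 1217, the opposite order. A cortical cell-delineating protein (LOC100283104) had 1241 and 163 (7.63-fold). The expansin gene expA3 (LOC541905), for a protein that loosens cell walls, had 456 and 112 (4.08-fold). Of the 36 probe sets of the gene table that fall here and were over the control level in both arrays, 1 was a member. Among the other 35, 3 were at least 2-fold higher and 3 at least 2-fold lower, beside shares of 5.26% and 3.99% over all probe sets outside the members, with a median log2 ratio of -0.22.

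In carbon and nitrogen metabolism, nicotianamine synthase 3 (LOC100284978), which makes a chelator of iron and other metals, had 1334 in D11 against 134 in WT (9.94-fold). Phosphoethanolamine N-methyltransferase, PEAMT, a step toward choline, had 304 and 36.2 (8.39-fold). The glutamate dehydrogenase gene gdh1 (LOC542220) had 738 and 173 (4.26-fold). The 1 member in signalling was a tyrosine phosphatase family protein by the study's list, which the gene table calls HIT2 (LOC541689), with 215 and 37.3 (5.77-fold).

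Of the named members outside these groups, agmatine deiminase (LOC100280344), on a path to the polyamine putrescine, had the highest ratio, with 953 in D11 and 29.9 in WT (31.9-fold). A protein induced upon tuberization (LOC100283996) had 1657 and 107 (15.4-fold). The others were annotated as CHY1, ATPase inhibitor, heavy metal-associated domain protein, secretory protein and gastric triacylglycerol lipase. Their ratios lay between 6.60 and 8.86.

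**Figure D3:**
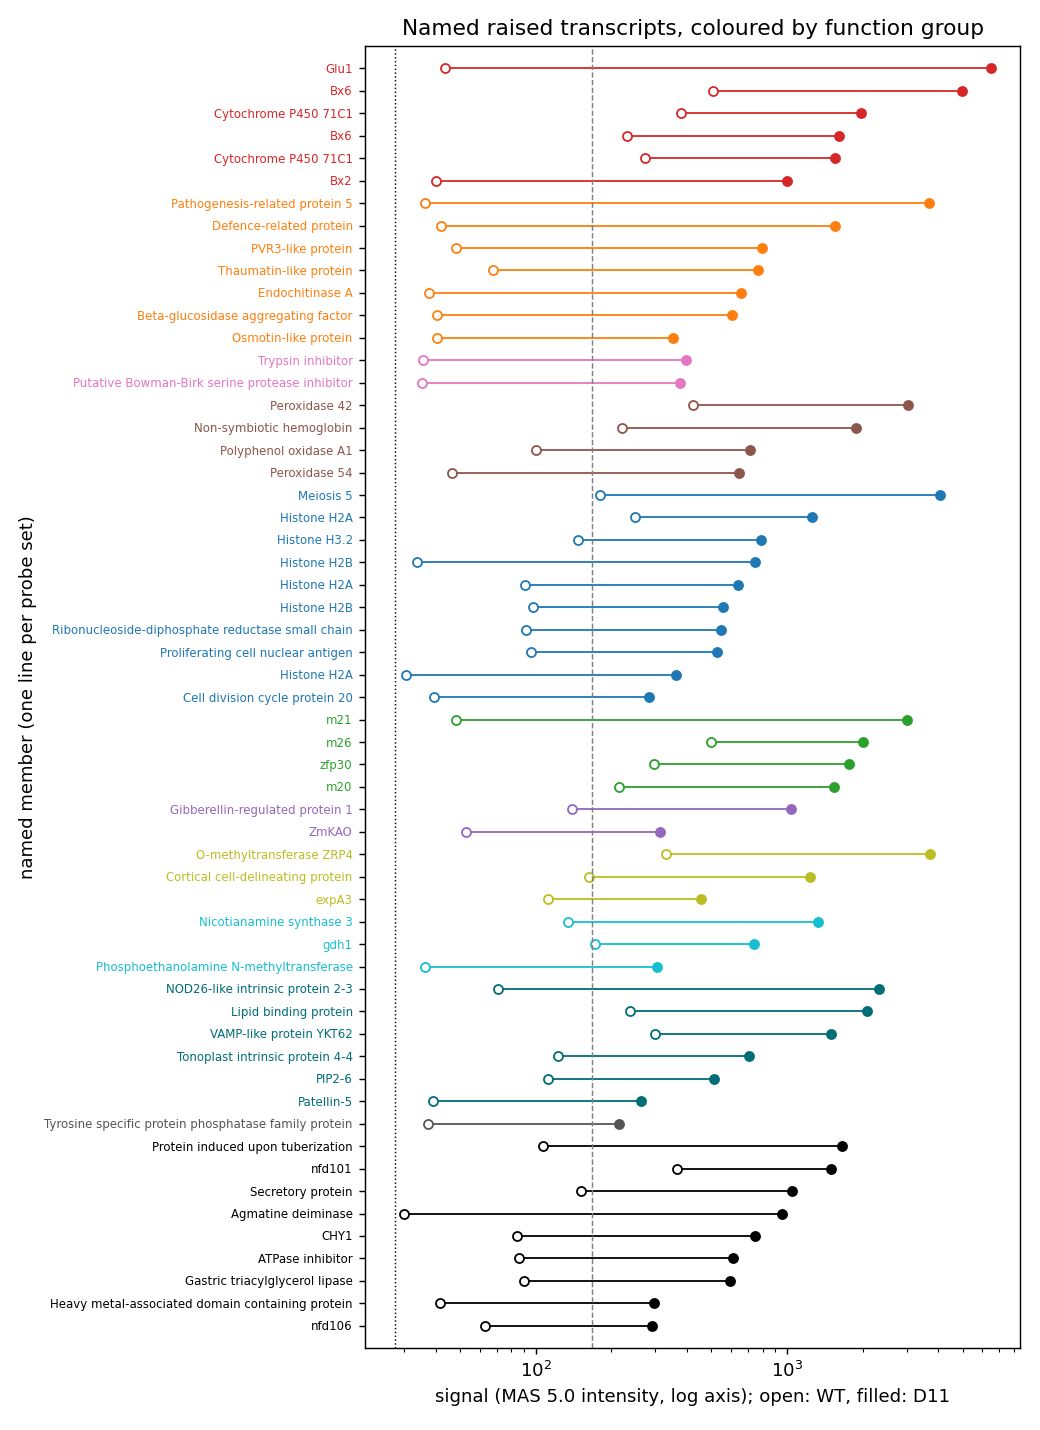
WT signal (open circles) and D11 signal (filled circles) of the 57 named raised transcripts, as MAS 5.0 intensities on a log axis, with 1 line per probe set and a colour per function group. The dotted line is the WT control level (27.6) and the dashed line the WT median (168). The defence proteins and protease inhibitors lie left of the dashed line in WT, whereas bx4, bx6, PER42, Hb and m26 lie right of it.

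For 67 members, the larger share, neither source held a name. Through the gene ID, RefSeq gave a symbol to a pair of them. These were sfp3 (556 in D11 and 41.3 in WT, 13.5-fold) and PAPhy (200.2 and 36.2, 5.54-fold). Those with the highest D11 signals were Zm.7150.4.A1_x_at (6528 in D11 and 1430 in WT), Zm.12387.1.S1_at (6298 and 694), Zm.7150.3.A1_a_at (5751 and 457), Zm.16476.1.A1_at (5336 and 1223) and Zm.4882.2.S1_at (4189 and 176). Those with the highest ratios were Zm.930.1.A1_at (2955 and 32.5, 91.0-fold), Zm.3452.1.S1_at (2421 and 29.5, 82.0-fold), Zm.17644.1.A1_at (1356 and 31.6, 42.9-fold), Zm.4164.3.A1_a_at (1685 and 41.7, 40.4-fold) and Zm.9601.1.A1_at (1325 and 49.6, 26.7-fold). The highest WT signals belonged to Zm.7150.4.A1_x_at and Zm.16476.1.A1_at, then to Zm.2031.4.A1_x_at (3366 and 827), Zm.12387.1.S1_at and Zm.7150.1.A1_x_at (4044 and 588). The unnamed members thus hold large signals and large ratios alike. Of the 44 members that the study's list does not hold, 38 had ratios under 5 and 6 had ratios of 5 or more, among them Zm.4882.2.S1_at at 23.8.

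Several members share a transcript. The 124 probe sets came from 115 clusters, the number in the probe set's ID that joins sequences taken to be one transcript or close relatives when the array was designed. Members with an ID that marks probes shared between transcripts (endings _a_at, _s_at or _x_at) were 26, or 21.0%, against 12.5% of all probe sets and 16.4% of those with enough signal for the rule. The gene LOC100382488 alone had 3 member probe sets, at 9.07-fold, 19.5-fold and 40.4-fold. None of the 2179 probe sets with the prefix ZmAffx was a member, though 295 of them had enough signal.

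Other probe sets with the same cluster number or the same gene were then set beside the members. They come from the same RNA and arrays and are no replicate. There were 96 that were not members themselves, and 70 of them were over the control level in both arrays. Of the 70, 16 were at least 2-fold higher in D11 (22.9%), 2 were at least 2-fold lower (2.86%) and 52 lay within 2-fold, with a median ratio of 1.17. This compares with 5.26% higher and 3.99% lower among all 12337 probe sets over the control level outside the members. Among the 40 whose ID does not mark shared probes, 7 were at least 2-fold higher and 31 within 2-fold. Counting other members too, 38 members had another probe set over the control level in both arrays. For 26 of them at least 1 such probe set was at least 2-fold higher, and for 12 none was. For 20 of the 26 the rule fixed this, because another probe set was itself a member.

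The gap was widest for glu1. The 9 other probe sets of its cluster, Zm.3633, had ratios between 0.52 and 1.22 (median 0.97), with WT signals from 44.9 to 7965 and D11 signals from 49.0 to 6845, whereas the glu1 probe set had 149. The gene table gives these 9 no name, and a cluster number can join related genes. For the cluster of gibberellin-regulated protein 1, the 4 others over the control level had ratios between 1.12 and 1.22. For H2B the 12 others of cluster Zm.14497 ranged from 0.90 to 3.41, and for nfd101 the 4 others ranged from 0.72 to 1.56. In these clusters 1 probe set stood apart from the rest.

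In other clusters more probe sets moved the same way. For H3.2, 5 of the 8 others of Zm.14513 were at least 2-fold higher, up to 3.94-fold. The cluster of the third H2A, Zm.16259, had 3 members between 4.77-fold and 5.08-fold, and its remaining probe set was 2.58-fold higher. In the unnamed cluster Zm.7150, 3 members had ratios from 4.57 to 12.6, and 2 of the 5 others were at least 2-fold higher. Of bx4, a pair of further probe sets with its cluster number Zm.5558 had 1.13 and 0.97. The further probe set numbered with bx6 had 459 in D11 against 978 in WT, a ratio of 0.47, whereas both members of bx6 were higher. In smaller clusters, the other probe set of PEAMT had a ratio of 0.81 and that of Zm.4882.2.S1_at 1.40. Those of patellin-5 over the control level had 1.50 and 1.29. For the second H2B, those over the control level with its cluster number, Zm.15914, had 1.01 and 1.16.

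**Figure D4:**
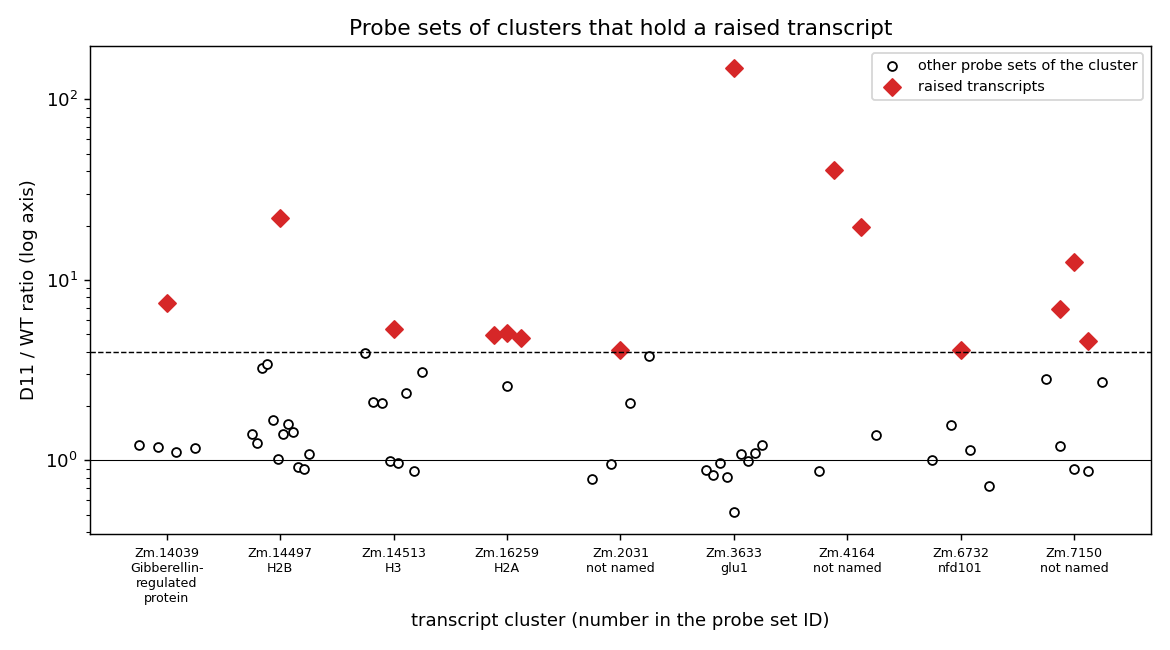
D11/WT ratio (y axis, log scale) of each probe set over the control level in both arrays, for the 9 transcript clusters (x axis) that hold a raised transcript and at least 4 such probe sets. Red diamonds are the raised transcripts and open circles the other probe sets of the cluster, the solid line is an equal signal and the dashed line 4-fold. The glu1 diamond at 149 stands over 9 circles between 0.52 and 1.22.

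On the genome of the maize line B73 (gene order alone, as in assembly Zm-B73-REFERENCE-NAM-5.0), 68 member genes could be placed among 34313 protein-coding genes. There were 10 pairs of successive member genes with fewer than 50 genes between them. The closest were bx4 and bx2, with 4 genes between them, which belong to the known cluster of benzoxazinoid genes. Next came LOC100194284, without a name here, and TIP4-4, with 6 genes between them. No test of this spacing was made.

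The ratios were recomputed under other scalings of the arrays. Under median centring, quantile normalization, lowess centring and scaling by housekeeping genes, the lowest ratio of any member was 3.51, and 100 of the 124 stayed at least 4-fold under all 4. With 25.1 added to every signal, which damps ratios of weak signals, 94 stayed at least 4-fold and the lowest ratio was 3.20. It lowered the ratio by over 1.5 times for 26 members, all with a WT signal under 50, of which 15 were named. With the offset glu1 had 94.8, bx2 15.7, PR-5 60.4, the defence-related protein 23.5, chiA 10.8, the aggregating factor 9.59 and the osmotin-like protein 5.77. The trypsin inhibitor had 6.96, the Bowman-Birk inhibitor 6.63, his2b5 13.1, the H2A with the lowest WT signal 6.95 and CDC20 4.76. For m21 it gave 41.4, for PEAMT 5.36 and for agmatine deiminase 17.8. The number of arrays limits the precision of each value.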

How the data were processed

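The deposited values are intensities on a linear scale that the authors made with MAS 5.0, a method that subtracts background, joins the probes of each set into 1 value and brings arrays to a common scale. Their methods credit GeneSpring, while MAS5 and Affymetrix Expression Console stand in the submitters' processing notes, with no version. Detection calls were not used here. Of 17734 probe sets, 179 were set aside, 113 of them Affymetrix controls and 66 reporter-gene probe sets. The control level was the highest signal of 23 Tag and TrpnX probe sets, 27.6 in WT and 24.7 in D11. Fold changes are quotients of D11 over WT, and no p-value was computed with 1 array per genotype.

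The members, gene lists and groups were chosen with earlier results of these data known. Names came from the platform's gene table (1453 probe sets) and the study's list of differing transcripts (285, names only), matched to RefSeq symbols through gene IDs, and each probe set went to the first group whose words it matched. All members with an informative name were named, and of those without, the 5 highest by D11 signal, ratio and WT signal. Alternatives were 4 scalings, an offset at the 25th percentile, other signal minimums, 3-fold and 5-fold limits, leaving out shared probe sets and counting clusters once. The steps were tested on simulated data. Python 3.11.15, numpy 2.4.6, pandas 2.3.3 and statsmodels 0.14.6 were used.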

Additional observations from a re-analysis of the deposited data

How the results depend on the processing

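The count of 124 raised transcripts kept within 1.5 times under median centring (98), quantile normalization (109, of which 107 shared), lowess centring (112, of which 109 shared), the offset (94), no WT minimum (157), D11 minimums of 100 (144) and 400 (94), a 5-fold limit (86), without shared probe sets (98) and with each cluster counted once (115). By their construction it was 36 with a WT minimum at the array median and 216 at 3-fold. With housekeeping scaling, which divides D11 by the median housekeeping ratio of 0.83, it was 193. That median was over 41 probe sets, mostly of tubulin, GAPDH and elongation factor genes. A name match also took in ub2 (sbp5), with 162 in D11 and 34.7 in WT. Whether these genes themselves differ by genotype was not tested. Over all probe sets, the median log2 ratio went from 0.03 to 0.30 under housekeeping scaling and to -0.17 under median centring. Of the 285 recomputed ratios of the 57 named members, 162 moved by more than the SD of the spike probe sets. Members chosen at 4-fold could not change direction under shifts of this size. With the offset, dwarf3 had 4.32, while m26 (3.87), nfd101 (3.90), nfd106 (3.59), expA3 (3.51), gdh1 (3.85), PIP2-6 (3.89) and the phosphatase (3.85) fell under 4. No paired analysis was possible because each genotype has 1 array. Signals near the control level limit the 37 members with a WT signal under 50.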
